A study of Mus musculus with 4 samples.

Results

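The SLAM receptor family was read as 8 genes, Slamf1, Slamf6, Cd84, Ly9, Slamf7, Cd48, Cd244a and Slamf9, picked by symbol from the 32285 genes of each matrix. All 8 had UMIs (unique molecular identifiers, each standing for a captured transcript) in at least 1 of the 6 cell classes examined, which were B cells, T cells, natural killer (NK) cells, classical monocytes, nonclassical monocytes and plasmacytoid dendritic cells. The cells were peripheral blood mononuclear cells, isolated on a Lymphoprep density layer, of BL/6 and SM/J mice aged 12 or 20 months, untreated as far as the labels say. Each strain was 1 10x run, in which its 2 ages were pooled and told apart by 3 sample tags each. A library below means the deposited matrix of 1 strain and age, a tagged part of that run. Strain and run were the same division, so the 2 cannot be told apart in any strain ratio. The labels do not say how many mice were used, nor that a tag marks a mouse, so no value below has a replicate error and no test was made between libraries. Ranges over the 3 tags and 95% intervals are given as descriptions, and the intervals cover counting error only.

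SLAM receptors are immunoglobulin-type proteins of blood cells. Most bind a copy of themselves on the neighbouring cell, whereas CD244 binds CD48, a lipid-anchored member without a cytoplasmic tail. The tails of most members carry tyrosine motifs that bind the small adaptors SAP (encoded by Sh2d1a) and EAT-2 (Sh2d1b1). SAP brings in the kinase Fyn, and without adaptors the same motifs can bind phosphatases. The family is known for helper T cell contact with B cells, for NK cell activation and for a locus whose haplotypes differ between laboratory mouse strains.

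After filtering, the libraries held 3400 cells (BL/6, 12 months), 3101 (BL/6, 20 months), 2405 (SM/J, 12 months) and 2685 (SM/J, 20 months), with 14250603 to 30627357 UMIs deposited per library. The SM/J library at 20 months had a median of 8837 UMIs per cell against 4061.5 to 4917 in the others. This was not so in every class. Its B cells had a median of 9630 against 3428 to 4204, whereas its T cells had 4012 against 4319.5 to 5203. B cells numbered 948 to 1611 in 3 libraries and 2005 in BL/6 at 12 months, T cells 233 to 530, NK cells 50 to 88, classical monocytes 126 to 498, nonclassical monocytes 162 to 705 and plasmacytoid dendritic cells 10 to 45. In each of these classes all 7 class markers were detected when the class was named. Clusters of B cells and monocytes were largely separate between strains, and 1 B cell cluster, number 27, held 846 of the 1611 B cells of SM/J at 20 months and fewer than 20 cells of any other library. Pairs of libraries shared at most 3 cell barcodes.

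On the mouse GRCm38 assembly (mm10), the GENCODE M21 annotation places 7 of the genes within 394.0 kb of chromosome 1. In order they are Cd244a (chr1:171559193-171609746, plus strand), Ly9 (chr1:171588624-171607410, minus), Slamf7 (chr1:171632403-171653035, minus), Cd48 (chr1:171682009-171705258, plus), Slamf1 (chr1:171767127-171801184, plus), Cd84 (chr1:171839697-171890718, plus) and Slamf6 (chr1:171917515-171953170, plus). Slamf9 (chr1:172475358-172478575, plus) lies 522.2 kb beyond Slamf6. The annotated span of Cd244a contains the whole of Ly9 on the other strand. The sources used here do not give the strand setting of the counting, and the values of these 2 genes are uncertain where either is abundant. Of the words of 31 bases in each gene's transcripts, none was shared with another gene for Ly9, Cd48, Cd244a, Slamf7 and Slamf9, and 0.489% for Slamf6, 2.46% for Cd84 and 2.92% for Slamf1. Reads of both strains were counted on mm10, which is the BL/6 genome. Loss of SM/J reads through sequence differences therefore cannot be told apart from a lower level when a gene is lower in SM/J in every class.

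Promoter windows of RefSeq (GRCm38.p6; 250 bases before to 30 after the annotated start) are shown for Cd244a, Cd84 and Slamf9, the members whose windows matched the first motif below, and for Slamf1 and Slamf6, which were counted mainly in B and T cells. Letters in capitals mark a match, on either strand, to GAGGAA (the core bound by PU.1, a factor of myeloid and B cells), CAGGTG (an E-box) or CTTTGA (the core bound by TCF and LEF factors). No matches overlapped one another.

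Cd244a: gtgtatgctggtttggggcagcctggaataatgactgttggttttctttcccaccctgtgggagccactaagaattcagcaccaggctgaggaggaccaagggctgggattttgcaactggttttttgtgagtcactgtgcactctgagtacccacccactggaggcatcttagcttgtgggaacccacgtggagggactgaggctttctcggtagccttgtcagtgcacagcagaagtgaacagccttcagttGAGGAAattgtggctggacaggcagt
Cd84: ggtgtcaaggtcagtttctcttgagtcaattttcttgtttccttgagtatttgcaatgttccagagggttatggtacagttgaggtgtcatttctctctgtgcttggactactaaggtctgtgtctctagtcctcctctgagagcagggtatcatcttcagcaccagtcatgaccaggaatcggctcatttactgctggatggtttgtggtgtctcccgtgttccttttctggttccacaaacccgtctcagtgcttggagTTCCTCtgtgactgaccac
Slamf9: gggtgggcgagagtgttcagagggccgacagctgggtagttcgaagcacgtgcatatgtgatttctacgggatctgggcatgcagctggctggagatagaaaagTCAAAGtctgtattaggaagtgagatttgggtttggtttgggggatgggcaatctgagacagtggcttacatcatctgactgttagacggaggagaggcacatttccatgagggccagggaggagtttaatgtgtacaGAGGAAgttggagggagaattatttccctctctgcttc
Slamf1: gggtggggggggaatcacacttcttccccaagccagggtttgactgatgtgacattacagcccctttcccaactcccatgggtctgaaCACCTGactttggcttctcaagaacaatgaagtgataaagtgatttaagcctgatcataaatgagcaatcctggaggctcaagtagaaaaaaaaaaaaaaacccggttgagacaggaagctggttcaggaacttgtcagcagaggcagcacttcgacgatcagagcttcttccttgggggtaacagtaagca
Slamf6: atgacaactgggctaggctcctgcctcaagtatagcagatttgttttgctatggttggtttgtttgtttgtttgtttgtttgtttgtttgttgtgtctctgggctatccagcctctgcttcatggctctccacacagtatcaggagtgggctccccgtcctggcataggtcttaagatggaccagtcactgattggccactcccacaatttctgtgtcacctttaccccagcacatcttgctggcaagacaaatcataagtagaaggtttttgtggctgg

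The windows are chr1:171558943-171559222 for Cd244a, chr1:171839447-171839726 for Cd84, chr1:172475110-172475389 for Slamf9, chr1:171766882-171767161 for Slamf1 and chr1:171917212-171917491 for Slamf6, all on the plus strand. GAGGAA or its reverse complement was found in the windows of Cd244a, Cd84 and Slamf9, 3 of the 7 members in the table, and in 25.9% of all 27025 promoters of this length. Cd48 and Slamf7 were also counted in monocytes, and these letters are not in their windows. The E-box CAGGTG was found only in Slamf1 among the 7, against 18.9% of all promoters. CTTTGA was found in 2 of the 7, Slamf9 and Cd48, against 15.4% of all. An interferon-stimulated element, TTTC followed by any 2 bases and TTTC, was found in 0 of the 7 and in 3.35% of all promoters. A match is a description of the letters only, and no binding was measured.

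The 8 genes divided by cell class in the same way in all 4 libraries for most members (plot of levels by class and library). Slamf1 and Slamf6 were counted mainly in B and T cells, Cd244a mainly in NK cells and monocytes, Slamf9 in plasmacytoid dendritic cells, part of the B cells and, at lower levels, monocytes of BL/6, and Cd48, Cd84 and Ly9 in lymphoid and myeloid classes alike. Slamf7 was counted in lymphoid classes of all 4 libraries, while its classical monocyte levels were far lower in SM/J than in BL/6. Levels are given as CPM, the UMIs of a gene scaled to a class total of 1000000 UMIs in that library.

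**Figure D1:**
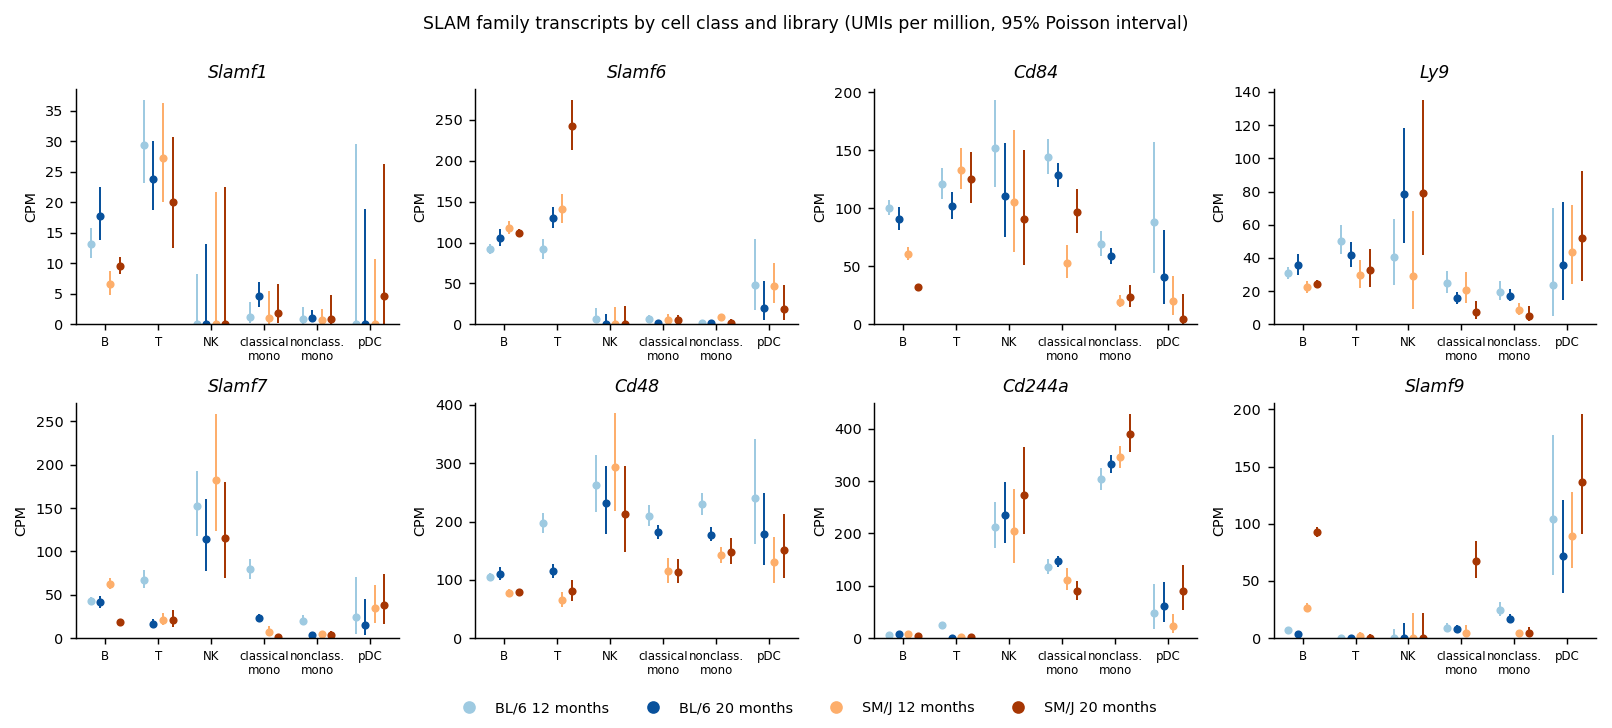
Level of each member (vertical axis, CPM, starting at 0, a separate scale for each gene) in 6 cell classes (horizontal axis) of the 4 libraries, with 95% Poisson intervals that cover counting error only. Slamf1 sits at 0 in NK cells of all 4 libraries, Cd244a is highest in nonclassical monocytes (304 to 391 CPM), and Slamf9 of B cells is at 92.8 CPM in SM/J at 20 months against 3.98 to 26.2 CPM in the other libraries.

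Slamf1, the founding self-binding receptor (CD150), was highest in T cells of the 6 classes, at 29.3 CPM (BL/6, 12 months), 23.9 (BL/6, 20 months), 27.2 (SM/J, 12 months) and 20.1 (SM/J, 20 months). The counting intervals of these 4 values overlapped. The cytotoxic cluster 11 held 68.4% of the T cell Slamf1 UMIs of BL/6 at 12 months. Without it, the T cell ratio of SM/J to BL/6 at 12 months moved from -0.10 to 1.03. The T cell age ratio in BL/6 moved from -0.29 to 0.65. B cells had 13.1, 17.8, 6.52 and 9.51 CPM in the same order of libraries, so the SM/J libraries were below both BL/6 libraries, with log2 ratios of SM/J to BL/6 of -0.91 (95% interval -1.37 to -0.45) at 12 months and -0.84 (-1.22 to -0.44) at 20 months. No Slamf1 UMI was seen in NK cells of any library, which allows up to 6.72 CPM in the deepest and 18.2 CPM in the shallowest of the 4. Monocytes had 22 UMIs or fewer per library.

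Slamf6 (Ly108), a self-binding receptor that signals through SAP, was 91.8, 106, 118 and 112 CPM in B cells and 91.8, 130, 141 and 242 CPM in T cells of BL/6 at 12 and 20 months and SM/J at 12 and 20 months. In T cells the SM/J library was above the BL/6 library of the same age, with log2 ratios of 0.61 (0.35 to 0.87) and 0.90 (0.66 to 1.12), both under 2-fold. The older library was above the younger in both strains, with log2 ratios of 0.50 (0.26 to 0.73) for BL/6 and 0.78 (0.52 to 1.04) for SM/J. Without the cytotoxic cluster 11, in which Slamf6 was low and which held most cells in BL/6 at 12 months, the strain ratio at 12 months was 0.22 and the age ratio in BL/6 0.19. NK cells had 3 Slamf6 UMIs in BL/6 at 12 months and 0 in the other 3 libraries, so Slamf1 and Slamf6 were both at or near 0 in NK cells. Plasmacytoid dendritic cells had 47.9, 20.5, 46.3 and 18.8 CPM of Slamf6, from 4 to 16 UMIs.

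Cd84, a self-binding receptor of B cells, T cells, myeloid cells and platelets, was similar in T cells of the 4 libraries (121, 102, 133 and 125 CPM). In nonclassical monocytes it was 68.9 and 58.8 CPM in BL/6 at 12 and 20 months and 19.4 and 23.2 CPM in SM/J, log2 ratios of -1.78 (-2.21 to -1.35) and -1.31 (-1.90 to -0.75). In B cells it was 100 and 90.7 CPM in BL/6 and 60.8 and 32.5 CPM in SM/J, so the ratio was -0.72 (-0.89 to -0.55) at 12 months and -1.45 (-1.64 to -1.26) at 20 months. In classical monocytes it was 144 and 128 CPM in BL/6 and 52.6 and 96.5 CPM in SM/J. The last of these values rested on 23 cells of cluster 4, which held 62 of its 106 UMIs, and without them the ratio at 20 months moved from -0.41 to -1.24. The T cell ratios were 0.14 (-0.11 to 0.39) and 0.30 (-0.00 to 0.60), so Cd84 was lower in SM/J in monocytes and B cells and was not in T cells. Under an alternative, the T cell ratio at 12 months was -0.37. The other classes ran lower in SM/J as well, with fewer UMIs. NK cells had 152 and 110 CPM in BL/6 and 106 and 91.1 CPM in SM/J with overlapping intervals, and plasmacytoid dendritic cells 87.9 and 41.0 CPM against 20.3 and 4.70 CPM, from 1 to 11 UMIs. With classes set from the markers of each cell, the ratio of Cd84 in nonclassical monocytes at 20 months was 0.26. Markers of other cells moved with the monocyte values. The 7 B cell markers, all seen, summed to 51.8 and 36.9 CPM in nonclassical monocytes of BL/6 and to 1141 and 516 CPM in those of SM/J at 12 and 20 months. In cluster 24 alone, which held 344 and 147 of these SM/J cells, they summed to 691 and 383 CPM. Erythroid markers there were 2659 CPM at 12 months (5 of 7 seen) and 75.2 CPM at 20 months (4 of 7). In cluster 5, which held 361 and 702 of the BL/6 cells, they were 47.9 CPM (4 of 7) and 48.5 CPM (5 of 7). Platelet markers, in contrast, were higher in BL/6. They summed to 221 and 482 CPM in classical monocytes of BL/6 (6 and 7 of 7 seen) against 91.6 and 92.9 CPM in SM/J (6 and 5 of 7), and to 72.1 and 74.1 CPM in nonclassical monocytes (all 7) against 34.0 and 36.1 CPM (3 of 7). Platelets themselves had 415 and 648 CPM of Cd84 in BL/6. The part of these other cells in the monocyte values of Cd84 and the other members was not tested.

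Ly9 (CD229), the self-binding receptor whose gene overlaps Cd244a, was 30.8, 35.5, 22.2 and 24.6 CPM in B cells, and 50.5, 41.5, 29.6 and 32.5 CPM in T cells. Each SM/J value was below both BL/6 values of its class, by less than 2-fold. Ly9 in T cells at 12 months had a strain ratio of -0.75, against -0.27 without cluster 11 and 0.51 under another alternative. In nonclassical monocytes it was 19.5 and 17.3 CPM in BL/6 and 8.51 and 5.15 CPM in SM/J, ratios of -1.11 (-1.79 to -0.44) and -1.58 (-2.71 to -0.53), the second from 6 SM/J UMIs. Neither stayed past 2-fold under all alternatives: the first was -0.86 with a pseudocount of 5 CPM and -0.97 without cluster 23, and the second -0.66 with classes set from the markers of each cell. In classical monocytes it was 25, 15.8, 20.5 and 7.28 CPM, the last from 8 UMIs, and with the 23 cells of cluster 4 left out the strain ratio at 20 months moved from -1.02 to -0.81. NK cells had 40.3, 78.2, 29.3 and 79.0 CPM from 5 to 22 UMIs, and their intervals overlapped.

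Slamf7 (CRACC), a self-binding receptor that acts through EAT-2 in NK cells, was highest in NK cells among the 6 classes in all 4 libraries, at 152, 114, 182 and 115 CPM with overlapping intervals. Classical monocytes had 79.4 CPM (68.6 to 91.4) in BL/6 at 12 months, 23 (18.9 to 27.7) in BL/6 at 20 months, 6.82 (2.74 to 14.1) in SM/J at 12 months and 0.91 (1 UMI) in SM/J at 20 months. None of these 4 intervals overlapped another apart from the 2 SM/J libraries, and the log2 ratio of SM/J to BL/6 was -3.36 (-4.45 to -2.39) at 12 months. That ratio was -1.23 with each strain clustered alone and -3.99 without the SM/J cells of cluster 4. Nonclassical monocytes had 19.9, 3.30, 4.42 and 3.43 CPM, high in BL/6 at 12 months alone. The older BL/6 library was lower than the younger one in both monocyte classes, by log2 ratios of -1.74 (-2.08 to -1.41) and -2.28 (-2.98 to -1.58). With each strain clustered alone, the second of these ratios was -0.13. In SM/J nonclassical monocytes 7 of 13 Slamf7 UMIs at 12 months and 2 of 4 at 20 months came from cluster 23, in which B cell markers were high. Without that cluster the strain ratios of Slamf7 moved from -1.95 to -2.68 at 12 months and from 0.04 to -0.62 at 20 months. With each strain clustered alone the 12-month ratio was -0.55 and so under 2-fold, and with classes set from the markers of each cell the ratios were -4.40 and -2.36.

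Cd48, the partner of CD244, was counted in every class and was 197, 115, 65.5 and 80.4 CPM in T cells, 105, 110, 77.5 and 78.4 in B cells, 210, 182, 115 and 114 in classical monocytes and 229, 178, 142 and 148 in nonclassical monocytes. Both SM/J values were below both BL/6 values in these 4 classes, with ratios from -0.26 to -1.57. NK cells did not show this order (262, 231, 293 and 213 CPM), and their ratios were 0.16 (-0.34 to 0.65) and -0.12 (-0.75 to 0.49). Plasmacytoid dendritic cells had 240, 179, 130 and 151 CPM from 30 to 45 UMIs. The difference in T cells at 12 months, -1.57 (-1.88 to -1.28), was past 2-fold, and it was -0.96 without cluster 11, where Cd48 was 388 CPM in BL/6, and -0.50 with classes set from the markers of each cell.

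Cd244a (2B4), the CD48 receptor, was 304, 332, 346 and 391 CPM in nonclassical monocytes, its highest among the 6 classes in each library. NK cells followed with 213, 235, 205 and 273 CPM, classical monocytes had 136, 146, 111 and 89.2 CPM, and plasmacytoid dendritic cells 47.9, 61.5, 23.2 and 89.4 CPM from 6 to 19 UMIs. Levels in B cells were 4.65 to 8.30 CPM, and those in T cells of 3 libraries 0.981 to 2.32 CPM. Within nonclassical monocytes the strain ratios were 0.19 (0.05 to 0.32) and 0.23 (0.08 to 0.38), so Cd244a was not lower in SM/J in the class in which Cd84, Ly9 and Slamf9 were. With classes set from the markers of each cell the Cd244a ratio at 20 months was -0.30, and those of Cd84 and Slamf9 turned positive. T cells of BL/6 at 12 months stood out with 24.3 CPM (18.7 to 31.1) from 63 UMIs, against 3, 4 and 2 UMIs in the other libraries.

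Slamf9, a member with a short tail that lacks the adaptor motif, was highest among the 6 classes in plasmacytoid dendritic cells of all 4 libraries. It was at 104, 71.8, 89.8 and 136 CPM there, from 13 to 31 UMIs with overlapping intervals. In SM/J at 20 months the interval (91.4 to 196) also overlapped that of B cells. In B cells it was 6.96 CPM (5.31 to 8.96) in BL/6 at 12 months, 3.98 (2.23 to 6.56) in BL/6 at 20 months, 26.2 (22.5 to 30.4) in SM/J at 12 months and 92.8 (88.6 to 97.2) in SM/J at 20 months. The 3 tags of each library spanned 5.15 to 8.63, 2.43 to 6.48, 23.3 to 28.8 and 87.1 to 96.2 CPM, so no tag of an SM/J library reached into the BL/6 range. The strain ratios were 1.77 (1.38 to 2.17) and 4.24 (3.63 to 4.87), the largest strain difference among the members in B cells. In nonclassical monocytes the order was the other way, with 24.7 and 16.7 CPM in BL/6 against 4.08 and 4.29 CPM in SM/J, ratios of -2.34 (-3.13 to -1.56) and -1.74 (-2.93 to -0.63). The second rests on 5 SM/J UMIs, and was -0.31 with doublets kept and 0.066 with classes set from the markers of each cell.

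The share of B cells with a Slamf9 UMI was 2.19%, 1.58%, 9.66% and 45.1% at median depths of 3630, 3428, 4204 and 9630 UMIs per cell. After thinning each cell to 1000 UMIs, which left out 2 to 5 cells per library, the shares were 0.549%, 0.423%, 1.96% and 6.16%. The background was read from T cells, of which 0%, 0.189%, 0.833% and 0% had a Slamf9 UMI at median depths of 4012 to 5203 UMIs. The 0 of 233 cells in SM/J at 20 months allows up to 1.29% of T cells with a UMI, which sets no limit on the share expressing the gene. The order of the libraries was the same before and after thinning.

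Across the 4 classes with enough cells for ratios (B cells, T cells and both monocyte classes), a member was counted as past 2-fold when the ratio of CPM + 1 reached 2-fold and the 2 libraries held at least 20 UMIs (plot of log2 ratios). At 12 months, 9 of 29 member and class pairs were lower and 2 were higher in SM/J, against 5.32% lower and 5.05% higher of all gene and class pairs. At 20 months, 7 of 27 were lower and 2 higher, against 7.89% and 6.98%. With age in BL/6, 5 of 29 were lower and 1 higher at 20 months, against 2.19% and 1.8%. With age in SM/J, 3 of 24 were lower and 2 higher, against 3.6% and 3.75%. Pairs of 1 gene in several classes are not independent, and each library enters 2 of these 4 comparisons. In nonclassical monocytes at 12 months the median log2 ratio was -1.11 over 7 members and 0.13 over all 9543 genes, and in T cells at 20 months it was 0.03 over 6 members and 0.02 over all.

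**Figure D2:**
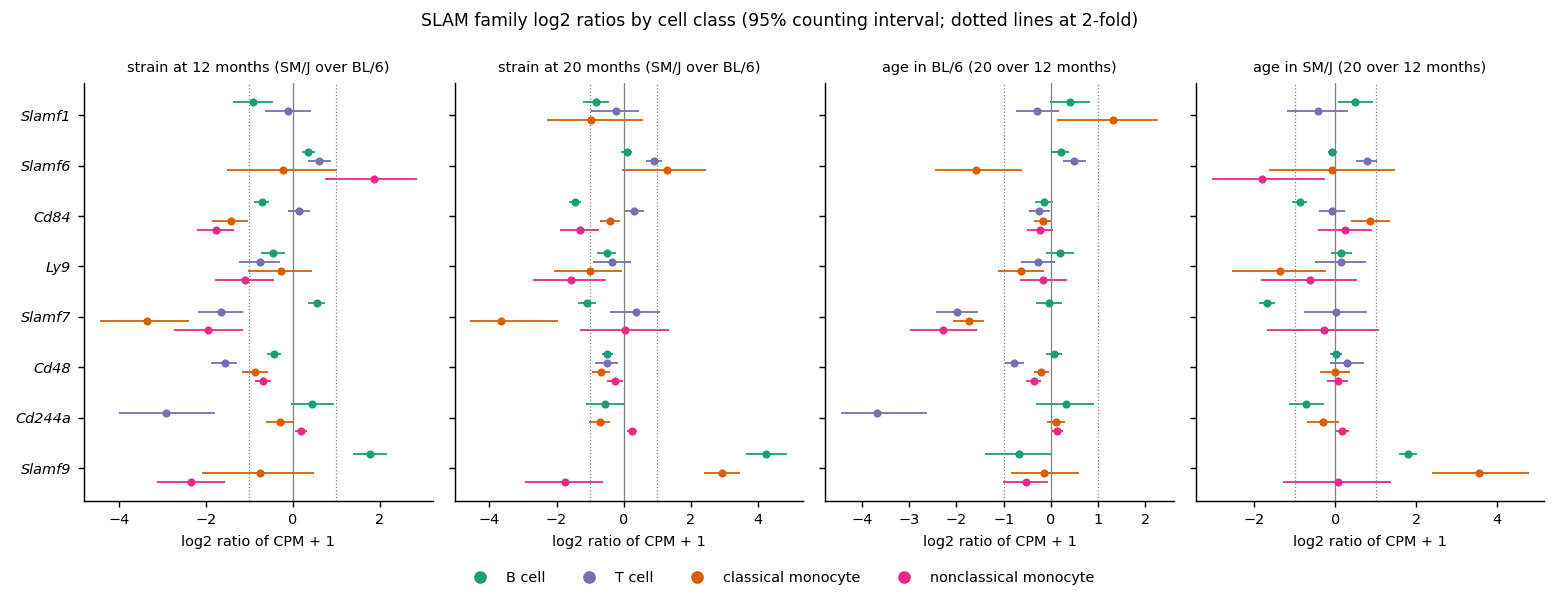
Log2 ratio of CPM + 1 (horizontal axis) for each member (vertical axis) in B cells, T cells and the 2 monocyte classes, with 95% counting intervals; panels show SM/J over BL/6 at each age and 20 over 12 months in each strain, and dotted lines mark 2-fold. Ratios of Slamf9 in B cells lie right of 2-fold in both strain panels (1.77 and 4.24), and those of Slamf7 in T cells and both monocyte classes lie left of 2-fold in the BL/6 age panel.

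Slamf9 differed between the B cell clusters of SM/J, and those clusters were unequally filled at the 2 ages (plot of B cell clusters). Cluster 27, led by Gnb3, Zcwpw1 and Krt18, held 1492 of the 1816 Slamf9 UMIs of SM/J at 20 months, at 118 CPM, and its 3 tags had 113 to 124 CPM. Cluster 20, led by the proliferation genes Pclaf, Rrm2 and Mki67, had 81.8 CPM in the same library. In 2 SM/J clusters present at both ages the values lay close together, at 21.8 and 19.6 CPM in cluster 17 (led by Hepacam2 and Sox5) and 37.4 and 39.2 CPM in cluster 19 (led by Fras1 and Pigr). In cluster 19 the 3 tags spanned 30.5 to 44.7 CPM at 12 months. At 20 months they had 0 UMIs in 21 cells, 37.0 CPM in 58 cells and 55.5 CPM in 49 cells. Without cluster 27 the age ratio in SM/J moved from 1.78 to 0.97, and without all B cell clusters that came mostly from 1 library it was -0.12. The strain ratio at 20 months was 3.26 without cluster 27 and 2.17 without all B cell clusters mostly of 1 library, and that at 12 months was 1.13 with each strain clustered alone. Plasma cell markers moved with these clusters. They summed to 1731 CPM in cluster 27 (all 7 seen) against 587 and 729 CPM in clusters 17 and 19 of the same library (6 of 7 seen in each), and to 688 and 1445 CPM in those clusters at 12 months (4 and 7 of 7). Conventional dendritic cell markers were 93.3 CPM in cluster 27 (6 of 7 seen) and 14.8 to 27.6 CPM in clusters 17 and 19 of SM/J. B cell markers stayed between 5089 and 6794 CPM in all of these. The part of cluster makeup or of other cells' RNA in the Slamf9 and Slamf7 differences was not tested. Among BL/6 B cells Slamf9 was concentrated in cluster 7 (21.5 and 9.98 CPM, led by Agbl1, Fcrl5 and Nt5e) and cluster 6 (14.7 and 11.1 CPM), while clusters 0 and 1, led by Fcer2a, had 2.19 CPM or less.

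In SM/J B cells Slamf7 and Slamf9 shared cluster 19, which held 327 of the 423 Slamf7 UMIs and 118 of the 177 Slamf9 UMIs at 12 months, and differed in cluster 27. At 20 months cluster 19 held 32.0% of the Slamf7 UMIs and cluster 17 held 32.5%. Slamf7 was 62.7 CPM at 12 months and 18.9 at 20 months, a ratio of -1.68 (-1.88 to -1.48), while BL/6 had 42.6 and 41.4. Cluster 19 had 104 and 116 CPM at the 2 ages, and cluster 27 had 6.73 CPM. Without cluster 27 the age ratio was -0.64 and the strain ratio at 20 months moved from -1.09 to -0.01, and without all B cell clusters mostly of 1 library they were -0.02 and 0.60. The age ratio of Slamf7 was also under 2-fold at a mitochondrial limit of 5% (-0.72) and with each strain clustered alone (-0.86), and the strain ratio with TMM scaling (-0.82), a pseudocount of 5 CPM (-0.96) and the limit of 5% (-0.55). Slamf6 was 180 and 219 CPM in cluster 12, the SM/J cluster with Fcer2a among its leading genes, and 89.4 and 88.6 CPM in cluster 0 and 131 and 135 CPM in cluster 1, the BL/6 clusters led by the same marker. It was 40.7 to 53.9 CPM in cluster 7, 66.2 to 71.2 CPM in cluster 17 of SM/J and 118 CPM in cluster 27. Cd84 was 104 and 91.4 CPM in cluster 12 against 105 and 97.7 in cluster 0 and 128 and 122 in cluster 1, and 24.5 to 50 CPM in clusters 17, 19, 20 and 27 of SM/J. For Cd84 the values of cluster 12 were thus close to those of cluster 0, whereas Slamf6 was higher in cluster 12 than in clusters 0 and 1.

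**Figure D3:**
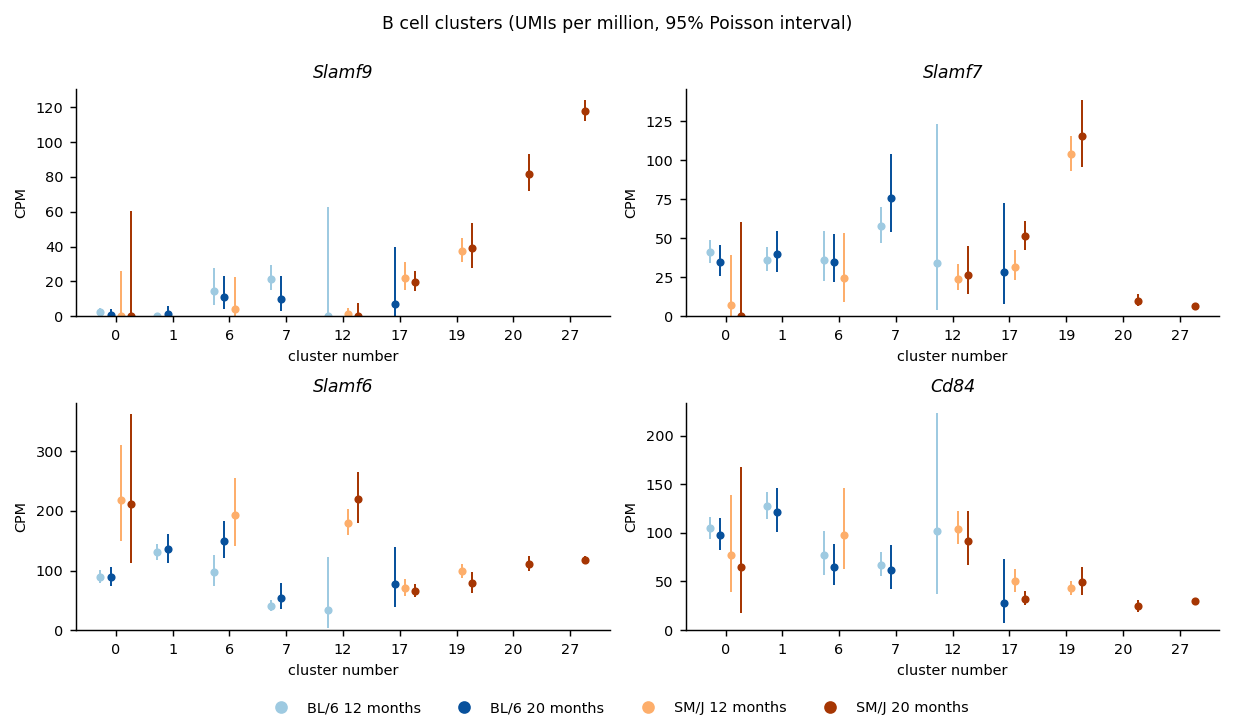
Slamf9, Slamf7, Slamf6 and Cd84 (vertical axes, CPM, starting at 0) in 9 B cell clusters (horizontal axis, cluster number) for each library with at least 20 cells in the cluster; bars are 95% Poisson intervals. Cluster 27 is seen only in SM/J at 20 months, with Slamf9 at 118 CPM and Slamf7 at 6.73 CPM, and cluster 19 has similar values at both SM/J ages.

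In T cells the BL/6 age differences of Slamf7 and Cd244a lay in 2 clusters (plot of T cell clusters). Slamf7 was 67.5, 16.3, 20.9 and 21.1 CPM, and Cd244a 24.3, 0.981, 2.32 and 1.91 CPM, in BL/6 at 12 and 20 months and SM/J at 12 and 20 months. Cluster 11, led by Cxcr6, Itga1, Cd8a, Ccl5 and Gzmb and so a cytotoxic CD8 pattern, fell from 166 of 452 T cells to 51 of 530 between the BL/6 libraries, and numbered 22 and 25 cells in SM/J. Within it Slamf7 was 165, 73.9, 96.7 and 71.9 CPM, from 131, 20, 9 and 8 UMIs, and Cd244a was 51.8 CPM in BL/6 at 12 months and 1 or 2 UMIs elsewhere. Cluster 13, led by Icos, Cd4, Tox and Izumo1r, held 22 of the other Cd244a UMIs of BL/6 at 12 months (39.6 CPM) and 0, 1 and 0 in the other libraries.

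Markers of NK cells moved with these values. In cluster 13 the 7 NK markers summed to 2243 CPM in BL/6 at 12 months, with all 7 seen, against 69.0 to 125 CPM in the other libraries. Ncr1, the NK receptor gene, had 131 CPM there, 5.11 CPM in SM/J at 20 months and 0 in the remaining 2 libraries. In cluster 11 the sum was 1988, 344, 2040.4 and 872 CPM, and Ncr1 was at 0 in BL/6 at 12 months, where Gzma made up 1396 CPM. Erythroid markers in cluster 11 also stood apart in BL/6 at 12 months, at 1196 CPM with all 7 seen, against 62.9 to 88.7 CPM in the other libraries. The part of NK or erythroid cell RNA in the Cd244a and Slamf7 values of clusters 11 and 13 was not tested. Outside clusters 11 and 13, T cells had 19.3, 12.8, 19 and 16.6 CPM of Slamf7 and 0, 2, 2 and 0 UMIs of Cd244a. Without cluster 11 alone, the BL/6 age ratio moved from -1.98 to -1.11 for Slamf7 and from -3.67 to -2.94 for Cd244a.

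**Figure D4:**
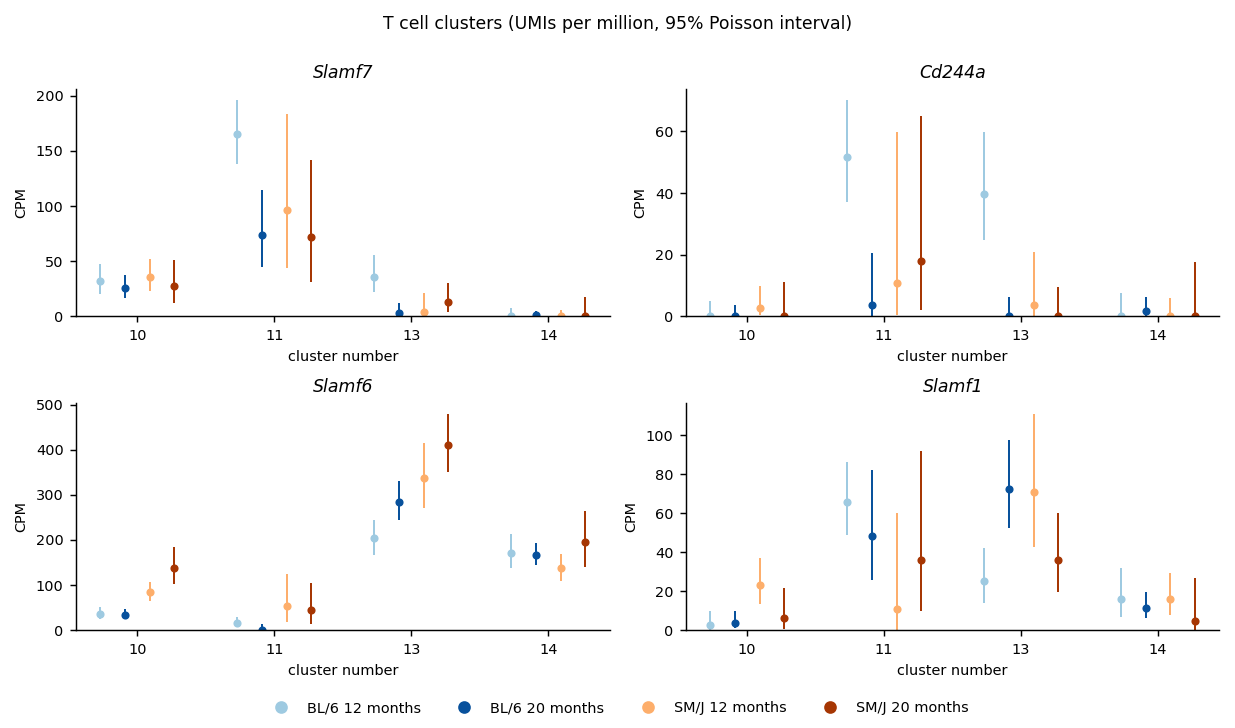
Slamf7, Cd244a, Slamf6 and Slamf1 (vertical axes, CPM, starting at 0) in the 4 T cell clusters (horizontal axis, cluster number) of each library, with 95% Poisson intervals. Slamf7 is highest in cluster 11 of BL/6 at 12 months (165 CPM), Cd244a is high only in clusters 11 and 13 of that library, and Slamf6 is highest in cluster 13 of each library (203 to 411 CPM).

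Slamf6 had another pattern within T cells. It was 203, 284, 337 and 411 CPM in cluster 13, 172, 167, 137 and 195 CPM in cluster 14 (led by Lef1 and Tcf7, genes of naive T cells), 36.0, 34.4, 84.0 and 139 CPM in the CD8 cluster 10, and 16.4 CPM in cluster 11 of BL/6 at 12 months, where the other libraries had 0, 5 and 5 UMIs. The cytotoxic cluster with the highest Slamf7 was therefore the one with the lowest Slamf6 in BL/6. Slamf1 was highest in cluster 11 (65.7 CPM) in BL/6 at 12 months and in cluster 13 in the next 2 libraries (72.4 and 71.1 CPM), and was 11.3 to 16.2 CPM in cluster 14 of those 3 libraries. In SM/J at 20 months clusters 11 and 13 had 36.0 and 35.7 CPM, from 4 and 14 UMIs.

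Some monocyte values rested on few cells. Slamf9 in classical monocytes was 9, 8.09, 4.87 and 67.4 CPM, and 70 of the 74 UMIs of the last value lay in the 23 SM/J cells of cluster 4, a cluster mostly of BL/6 cells. In those cells Slamf9 was 250 CPM, the 7 macrophage markers summed to 2176 CPM (273 to 404 CPM in the BL/6 cells of the cluster) and all 7 NK markers were at 0. Other marker lists were also higher there than in the BL/6 cells of the cluster, at 537 CPM against 51.7 to 97.8 for B cells, 390.1 against 113 to 145 for neutrophils and 447 against 204 to 236 for conventional dendritic cells. Their part in the Slamf9, Cd84 and Ly9 values was not tested. Without them the strain ratio at 20 months was -0.63 in place of 2.91. Slamf6 in nonclassical monocytes of SM/J at 12 months was 8.51 CPM against 1.59 CPM in BL/6, and 18 of its 25 UMIs came from 39 cells of cluster 23, in which B cell markers summed to 5119 CPM and nonclassical monocyte markers to 1688 CPM. Without cluster 23 that ratio moved from 1.87 to 0.49. The part of B cell RNA in it was not tested.

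The adaptors differed in the classes that held them (plot of adaptors, Fyn and Slamf8). Sh2d1a (SAP) was 95.2, 89.2, 78.2 and 101 CPM in T cells and 123, 81.8, 117 and 128 CPM in NK cells, with 6 UMIs or fewer in any B cell or monocyte library. Sh2d1b1 (EAT-2) was 120 and 130 CPM in nonclassical monocytes of BL/6 and 17.7 and 13.7 CPM in those of SM/J, log2 ratios of -2.69 (-3.12 to -2.28) and -3.15 (-3.90 to -2.48). It was also higher in BL/6 classical monocytes, with 13.1 and 27.2 CPM against 2 and 0 UMIs. NK cells had 51.5, 14.2, 29.3 and 30.4 CPM of Sh2d1b1, from 23, 4, 5 and 5 UMIs with overlapping intervals, and T cells had 3 UMIs or fewer. In B cells it was 1.62, 1.86, 1.19 and 8.95 CPM, high in SM/J at 20 months alone. Sh2d1b2, the third adaptor gene, had 5 UMIs or fewer in each of the 5 larger classes.

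**Figure D5:**
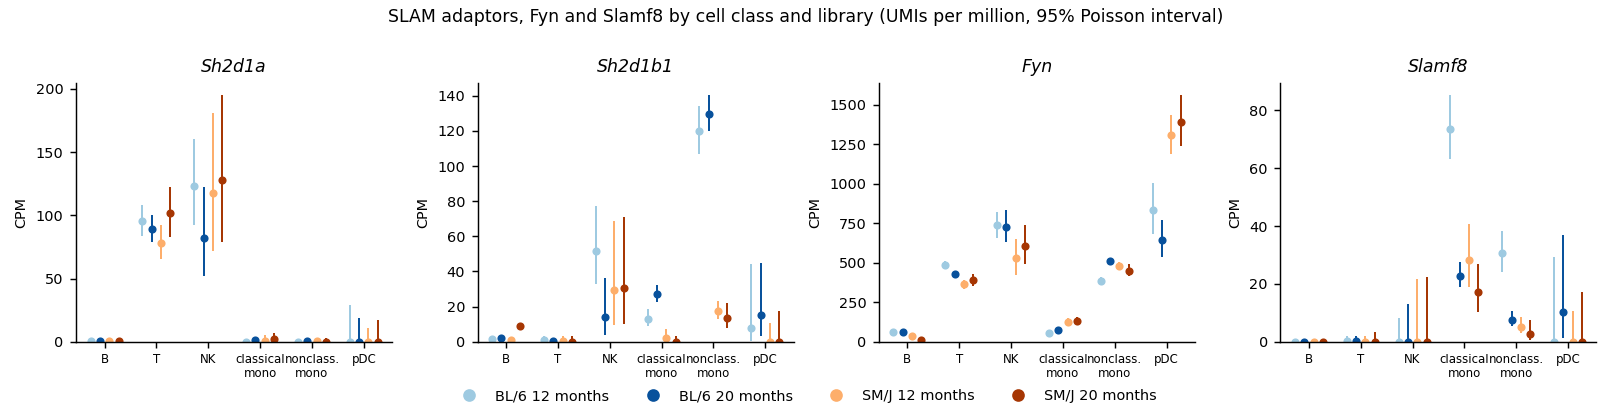
Sh2d1a, Sh2d1b1, Fyn and Slamf8 (vertical axes, CPM, starting at 0, a separate scale for each gene) in 6 cell classes (horizontal axis) of the 4 libraries, with 95% Poisson intervals. Sh2d1a is confined to T and NK cells apart from 6 UMIs or fewer in B cells and monocytes, and Sh2d1b1 of nonclassical monocytes is at 120 and 130 CPM in BL/6 against 17.7 and 13.7 CPM in SM/J.

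Of the 20 pathway genes (adaptors, Src-family kinases, phosphatases, downstream proteins, and the relatives Cd2 and Slamf8), 4 of 63 gene and class pairs were higher and 4 lower past 2-fold in SM/J at 12 months, against 5.05% and 5.32% of all gene and class pairs. At 20 months 7 of 62 were higher and 7 lower, against 6.98% and 7.89%. With age in BL/6, 1 of 62 was higher and 3 lower, against 1.8% and 2.19%, and with age in SM/J 5 of 58 were higher and 3 lower, against 3.75% and 3.6%. Fyn, the kinase that binds SAP, was 59.6, 63.1, 33.6 and 11.4 CPM in B cells and 486, 427, 362 and 388 CPM in T cells. Inpp5d (SHIP1), a lipid phosphatase bound by SLAM receptors, was 686, 763, 488 and 303 CPM in B cells. Cd2, the other partner of CD48 in mice, was 287, 267, 252 and 569 CPM in B cells and 191 to 253 CPM in T cells. Slamf8, a relative without adaptor motifs, was 73.7, 22.8, 28.3 and 17.3 CPM in classical monocytes, and its ratio of 20 over 12 months in BL/6 was -1.65 (-1.99 to -1.31), beside -1.74 for Slamf7 in the same cells.

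Likeness was taken over 24 profiles, 1 for each library of B cells, T cells, NK cells, both monocyte classes and a macrophage class, which share libraries and depth, so the coefficients are descriptions. Slamf1 and Slamf6 had the highest correlation among the members (Pearson r = 0.91), followed by Ly9 and Slamf7 (0.81), and Slamf6 and Cd244a had the lowest (-0.92). The genes most like Slamf1 were Gm16158 (0.92), Pgpep1l (0.91) and Gpr183 (0.91), and those most like Slamf6 were Dtx1 (0.95), Gm16158 (0.93) and Gpr183 (0.92). Cd244a was most like Elmo2 (0.96), Cln3 (0.94) and Fcer1g (0.94), and the genes like Cd48 included Prex1 (0.87) and Ostm1 (0.84). Ly9 was most like Rnf157 (0.88), Lsm4 (0.86) and Tmem126a (0.85), and Slamf7 most like Tmsb15b2 (0.88), Zfp429 (0.83) and Stard10 (0.83). Slamf9 was most like Lifr (0.84), Slc7a7 (0.84) and Atf3 (0.83). Cd84 had the weakest likeness, to Itga6 (0.78), Ank (0.76) and Dhrs7 (0.76).

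Of the 40 protein-coding genes nearest the 7 clustered members, 20 on each side, 26 had at least 20 UMIs in B cells at both ages. Past 2-fold in the same direction at both ages were 4 of them, all higher in SM/J, and 0 were lower, against 3.64% higher and 3.25% lower of all 11497 genes with enough UMIs. They were F11r (1.31 and 2.36 on the log2 scale at 12 and 20 months), an adhesion molecule gene, Pea15a (1.25 and 1.36), Tagln2 (1.06 and 1.49), an actin-binding protein gene, and Slamf9 (1.77 and 4.24). Slamf9 is itself a SLAM member, so its difference is the one already given above.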

How the data were processed

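The 8 members and all gene lists were chosen with earlier results of these data known. The matrices hold whole UMI counts per gene and cell as deposited by the authors, made with Cell Ranger 7.0.1 per the file headers. The submitters' processing notes name mm10 and Seurat 4.3.0. The library kit was 10x 3' gene expression with sample multiplexing, per the labels' protocols. The sources used here do not give alignment or strand settings. Of the 32285 gene IDs, 32158 matched the reference gene names, including all 8 members.

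Cells with at least 500 UMIs, 200 genes and at most 10% mitochondrial UMIs were kept. Scrublet, applied to each run, called 130 doublets, which were removed. Tags were not used as a filter. The younger libraries therefore include 16 (BL/6) and 24 (SM/J) cells assigned to a tag of the other age. Such cells enter the class and cluster values and ratios, but not the values given per tag. Scanpy 1.11.5 clustered the cells on 2000 variable genes, without the members and pathway genes (30 components, 15 neighbours, Leiden resolution 1.0), into 28 clusters, named from 7 markers for each of 13 classes. One cluster of 90 cells stayed unnamed. UMIs were summed per class and library and scaled to a class total of 1000000 (CPM). Ratios are log2 of CPM + 1, given where 2 libraries held at least 10 UMIs, with 95% Poisson, conditional binomial or exact Clopper-Pearson intervals that cover counting error only. Each group is 1 matrix, a tagged part of the run of its strain, so no p-value was computed. The ratio rule was tested on simulated data.

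Genes named are the 8 members, the 20 pathway genes, the 3 genes with the highest Pearson r to each member (highest profile at least 20 CPM), those of the 20 protein-coding neighbours on each side that passed 2-fold in the same direction at both ages in B cells, and the leading genes and markers of clusters. Some genes that this rule names are not reported here. Alternatives changed scaling (TMM of edgeR 4.0.16), pseudocount, filters, doublets, clustering, class naming, fold and UMI minimum, thinning and the likeness measure. Leaving out clusters 4 (SM/J cells), 11, 23 and 27 was chosen after seeing the data.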

Additional observations from a re-analysis of the deposited data

Results flagged for a closer look

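Members were also counted in cell classes outside the 6 compared, at levels at least 2-fold above the highest of those 6. Slamf1 in platelets was 290 CPM (58 UMIs in 151 cells) in BL/6 at 12 months and 312 CPM (68 UMIs in 173 cells) in BL/6 at 20 months, against 29.3 and 23.9 CPM in T cells. Cd84 in platelets was 415 CPM in BL/6 at 12 months and 648 CPM in BL/6 at 20 months. Cd84 in basophils was 456 CPM and 261 CPM in the same libraries, and in macrophages of BL/6 at 20 months it was 260 CPM. Slamf7 in plasma cells of BL/6 at 20 months was 291 CPM, against 114 CPM in NK cells. Platelets numbered 1 and 0 cells in SM/J. The other classes had cells in further libraries: Cd84 in basophils of SM/J was 686 and 409 CPM (15 and 11 cells), and in macrophages it was 284 CPM in BL/6 at 12 months (30 cells) and 119 and 142 CPM in SM/J (35 and 397 cells). Slamf7 in plasma cells was 34.6 CPM in SM/J at 20 months (24 cells), and 238 and 286 CPM in BL/6 and SM/J at 12 months, from 9 and 8 UMIs. The study has no control group for these values, and no test between libraries was made.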

How the results depend on the processing

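Of 109 ratios, 31 were past 2-fold; 26 of these had the same sign and 13 stayed past 2-fold under all alternatives run. One of the 13, Slamf9 in classical monocytes between SM/J ages (3.54), had only 6 alternatives, and none without the SM/J cells of cluster 4, which held 70 of its 74 UMIs at 20 months. Of 1200 alternative values, 132 left the counting interval of the reported value. Under some alternative 38 of the 109 ratios changed sign, most of them ratios under 2-fold. Among those past 2-fold there were 6 sign changes, which were Cd84 and Slamf9 in nonclassical monocytes between strains at 20 months with classes from markers of each cell (0.26 and 0.066), Slamf7 between strains at 20 months and Slamf9 between SM/J ages in B cells without the clusters mostly of 1 library (0.60 and -0.12), and Slamf9 in classical monocytes between strains at 20 months at resolution 2.0 (-0.52) and without the SM/J cells of cluster 4 (-0.63). The numbers of member and class pairs past 2-fold, given above beside the shares of all pairs, were 11 and 9 between strains at 12 and 20 months, and 18 and 14 at a fold of 1.5. Shares of all gene and class pairs were computed at 2-fold under the main settings only. The counts under other settings therefore have no background to be read against. With age in BL/6 the number was 6, and 3 with each strain clustered alone and with classes from markers of each cell. With age in SM/J it was 5, and 10 at a fold of 1.5, and 3 at a mitochondrial limit of 5% or 20%, with at least 50 UMIs, without cluster 27 and without B cell clusters mostly of 1 library. TMM scaling moved the median log2 ratio of all genes in B cells by 0.25 between strains at 20 months and by 0.15 between SM/J ages, and elsewhere by -0.14 to 0.12. At the mitochondrial limit of 5% no cluster was named plasmacytoid dendritic cell. The cause of these changes was not tested. No paired analysis was possible, because each group is a tagged part of 1 run and no label says that a tag marks a mouse. NK cells, plasmacytoid dendritic cells and any value from under 20 UMIs are limited by depth.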
